A study of Mus musculus with 12 samples.

Results

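Fully grown *Alkbh5*−/− (KO) and wild-type (WT) mouse oocytes were compared at the germinal vesicle (GV) stage, before any meiotic progress in culture. The comparison holds every library labelled GV, 4 of the 12 libraries of the series, with 2 libraries for each genotype. The remaining 8 libraries were labelled germinal vesicle breakdown (GVBD) or metaphase II (MII), again 2 for each genotype, and are used here only to ask which GV differences were present later. All oocytes came from 3-week-old C57BL/6 females primed with PMSG, a gonadotropin that drives follicles to full growth. KO mice carried a CRISPR-Cas9 deletion in exon 1 of *Alkbh5* that removes the start codon in every tissue, so that the oocyte and the follicle around it both lacked the gene, and WT mice carried no deletion. Each library was made from a small pool of oocytes stripped of the zona pellucida, lysed together with ERCC spike-in, a set of synthetic RNAs in fixed amount. The study calls the replicates biologically independent, but does not state how many mice each pool drew on.

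ALKBH5 is an enzyme that removes the methyl group of N6-methyladenosine (m6A), the most common internal mark of messenger RNA, which YTH-domain and other reader proteins bind. A fully grown oocyte arrested in prophase has stopped most transcription and lives on maternal RNA stored during growth. Part of this RNA is translated and part is destroyed once meiosis resumes.

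Libraries held 28557742 to 36067277 counts, of which 0.777% to 1% fell on ERCC sequences, and 22857 to 24302 genes received at least 1 count. The targeted gene was low in both KO libraries. *Alkbh5* (chromosome 11, 60536381 to 60558512, GRCm38) received 5355 and 6031 counts in WT and 143 and 74 in KO, a log2 fold change of −5.41 ± 0.52 (SE, adjusted p = 0.046 by edgeR, spike-in scaled). Of the 23 tested genes that start within 500 kb of it none was called, where 0.0977% of all genes were. Among the 23, 2 did not overlap and differed at least 2-fold between genotypes, against 10.7% of all genes. Neither was among the 16 neighbours with a WT mean of at least 50 counts. Log2 fold changes ran from −2.24 to 1.08 over the 23. The libraries carried the transcripts that define oocytes, such as *Gdf9*, an oocyte growth factor, with 77357 and 46350 counts in WT and 51555 and 76277 in KO. *Amh*, a granulosa cell hormone, was at 0 in all 4.

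Transcripts of cells other than oocytes differed strongly between libraries, and they bear on several results below. Hepatocyte genes, 22 in all and led by *Alb* (serum albumin), summed to 6.38 and 8.22 CPM (counts scaled to the endogenous total of each library) in WT GV and to 1030 and 501 in KO GV. All 22 were higher in both KO libraries, and 13 of them were at 0 in both WT libraries. The same list was high in some later libraries of either genotype: 879 in WT GVBD replicate 1 against 11.1 in replicate 2, 510 in WT MII replicate 1 against 9.34 in replicate 2, 225 in KO GVBD replicate 1 and 230 in KO MII replicate 2, but 5.81 and 5.10 in the other KO libraries of these stages. Liver RNA therefore followed single libraries after GV, whereas at GV it followed the genotype label. Its source was not tested, and in pooled samples fewer cells of a type cannot be told apart from less RNA per cell. Blood and immune genes, 14 in all, summed to 55.3 CPM in WT GV replicate 1 but to 5512, 3121 and 5262 in the other 3 GV libraries, so WT GV replicate 1 stood apart from its own group. Granulosa and cumulus cell genes were even as a sum, at 46.5 to 59.6 CPM over the 4 libraries, but the 15 tested members had log2 fold changes from −1.88 to 2.36. Theca and stroma genes were uneven, at 4.11 and 65.7 CPM in WT GV and 36.5 and 13.0 in KO GV.

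**Figure D1:**
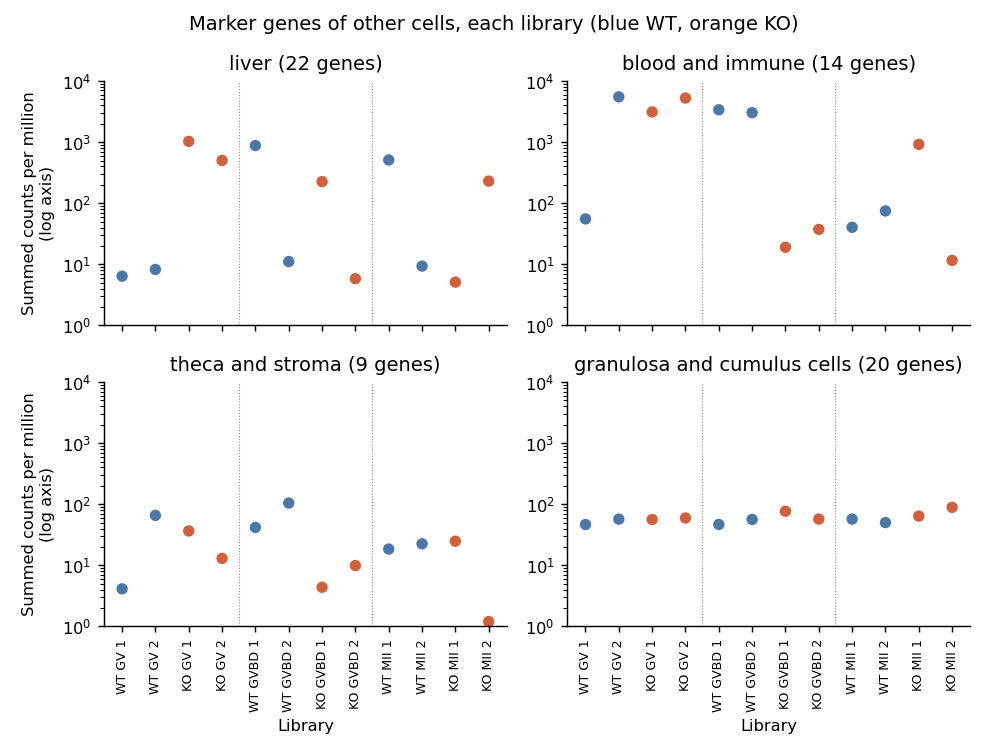
Summed CPM, scaled to endogenous counts (log axis), of marker genes of liver, blood and immune cells, theca and stroma, and granulosa and cumulus cells in each of the 12 libraries, with WT in blue and KO in orange and dotted lines between stages. Liver genes were high in both KO GV libraries (1030 and 501) and in 1 of 2 libraries of every later group, and blood genes were low in WT GV replicate 1 only among the GV libraries.

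The whole transcript pool was first set against the spike-in. Endogenous counts per ERCC count were 104.9 and 98.9 in WT GV and 127.7 and 111.3 in KO GV, so the 2 KO libraries both lay above the 2 WT libraries. The means were 102 ± 4.24 in WT and 119 ± 11.6 in KO (SD, n = 2), a ratio of 1.17. An exact two-sided permutation test over the 4 libraries gave p = 0.333, which is the smallest value that 6 arrangements allow. The ratio also moves with the number of oocytes in a tube, and more oocytes cannot be told apart from more RNA in each oocyte. The study reports smaller diameters of KO GV oocytes. It also reports a raised ratio of oocytes with a non-surrounded to those with a surrounded nucleolus, 2 nuclear configurations of the GV stage. The part of these differences in the GV comparison was not tested. Over 47 ERCC sequences, single spike-in ratios between 2 GV libraries had an SD of 0.418 to 0.543 on the log2 scale.

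Gene by gene, the spike-in and the relative scale gave different pictures of the same counts. Scaled to the spike-in, 72.7% of 19452 tested genes had a higher value in KO, with a median log2 fold change of 0.36 (quartiles −0.05 and 0.73). Under TMM scaling, which sets the bulk of genes as equal, the median was 0.00 and 50.3% of genes were above 0. The number of genes at least 2-fold higher was 2908 by spike-in and 1653 by TMM, and the number at least 2-fold lower was 999 and 1775. The shift was not carried equally by both KO libraries. Over the 9726 more abundant genes, the median log2 ratio to WT was 0.48 and 0.51 for KO replicate 1, but 0.22 and 0.25 for KO replicate 2, and the KO replicates differed from each other by 0.25. Without KO replicate 1 the median over all tested genes was 0.16.

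**Figure D2:**
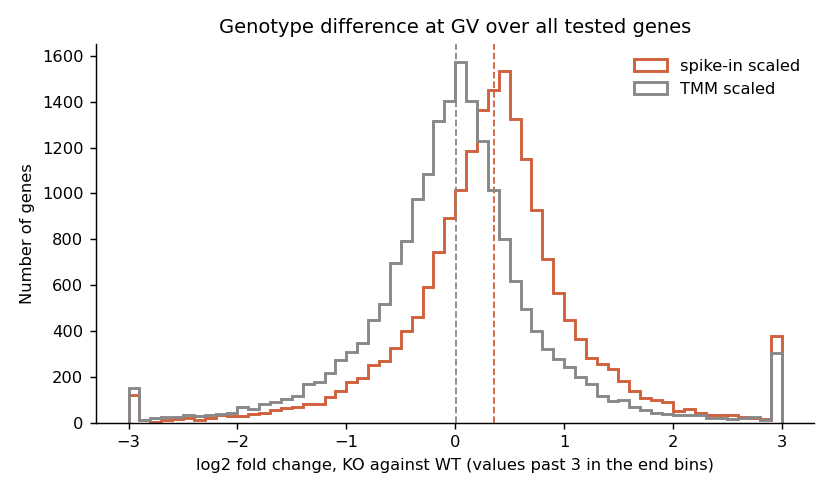
Number of genes (y axis) by log2 fold change of KO against WT at GV (x axis, values past 3 placed in the end bins) over 19452 tested genes, scaled to spike-in (orange) or by TMM (grey), with dashed lines at the medians. The 2 curves have about the same shape, and the spike-in curve is shifted to the right, with its median at 0.36.

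Beyond the shift, genotypes differed more than replicates did. For the same 9726 genes the interquartile range of the log2 ratio was 0.49 between the WT replicates and 0.37 between the KO replicates, and 0.57 to 0.70 between a WT and a KO library. After centring, 5.92% and 3.88% of genes were over 2-fold apart within WT and KO, against 7.87% to 11.9% between genotypes. The shift was similar along the genome, with TMM medians between −0.07 on chromosome X and 0.07 on chromosome 2. It was also similar across abundance, with spike-in medians of 0.31 to 0.39 over 5 equal groups of genes. Short transcripts stood lower, at a TMM median of −0.13 for the shortest of 5 equal groups by summed exon length and 0.02 to 0.05 for the others. Long noncoding genes had a TMM median of −0.10 and protein-coding genes one of 0.03.

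Few single genes passed the test. With an adjusted p under 0.05 and at least a 2-fold difference, 19 genes (0.0977% of those tested) were called, 11 higher (0.0565%) and 8 lower (0.0411%) in KO. At an unadjusted p under 0.05 by edgeR there were 3475 genes, 3016 higher and 459 lower. These counts, and those by DESeq2 below, are on the spike-in scale, where the median gene lay at 0.36. Under TMM 2509 genes were under that unadjusted p by edgeR, and 20 were called, 9 higher and 11 lower. The calls were sensitive to the libraries and to the test: no gene was called without KO GV replicate 1 or without KO GV replicate 2 (1752 and 3047 at an unadjusted p under 0.05 by edgeR), whereas DESeq2 called 676 genes (3.48%, 2.76% higher and 0.72% lower), among them all 19. A second, purely descriptive criterion is therefore used below. A gene is said to be separated when its KO and WT libraries did not overlap under both scalings and differed at least 2-fold under both. By this criterion 1315 genes (6.76%) were higher and 775 (3.98%) were lower in KO, 10.7% in all. The criterion is not symmetric, because spike-in fold changes lay above TMM ones. An upward gene had to reach 2-fold by TMM, and a downward gene 2-fold by spike-in. Under TMM alone 1653 genes were at least 2-fold higher and 1775 lower, and 23.5% and 22.5% did not overlap. The excess of upward over downward genes is therefore not read as a result. Most separated genes were of low abundance. In the lowest of 5 equal groups by abundance 15.2% of genes were separated upward and 9.30% downward, and in the highest 0.848% and 0.668%.

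Of the 11 genes called higher, 6 encode proteins that hepatocytes make. *Alb* received 8 and 14 counts in WT and 14077 and 9451 in KO (log2 fold change 10.35 ± 0.61, adjusted p = 0.023). *Ttr*, which encodes the thyroid hormone carrier transthyretin, had 4 and 8 counts against 810 and 553. *Apob*, the structural protein of low-density lipoprotein, had 6 and 14 against 1503 and 1249. *Gc*, the vitamin D-binding protein, had 46 and 48 against 1204 and 871. *Cyp3a11*, a drug-metabolizing cytochrome P450, was at 0 in both WT libraries and had 441 and 860 counts in KO, at least 244-fold higher against a floor of 3 counts per library. *Mug1*, a serum protease inhibitor, was at 0 in WT and had 1008 and 692 counts in KO, at least 349-fold higher. These 6 genes were also at least 4-fold higher in replicate 1 than in replicate 2 of WT at both GVBD and MII, that is, they followed the libraries rich in liver RNA within 1 genotype.

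This pattern between WT replicates, chosen after the values were seen, was met by nearly all liver genes and is used to describe how many GV differences share it. It held for 224 of 19452 tested genes (1.15%) and for 21 of the 22 liver genes. Among the 1315 genes separated upward at GV it was met by 171 (13%), and among the 775 separated downward by 6 (0.774%). Together these 171 genes took 49.4 and 74.5 CPM in WT GV and 2110 and 1081 CPM in KO GV. Setting them aside left 1144 genes separated upward (5.88% of those tested). Of 202 tested genes with at most 3 counts in both WT libraries, 94 met the pattern, while none of the 63 with at most 3 counts in both KO libraries did. Such genes passed the filter only through the other genotype, and both KO GV libraries were rich in liver RNA. This contrast therefore follows largely from the selection, and nothing is concluded from it.

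The other 5 genes called higher did not follow the liver pattern. *Dpf3*, a subunit of the BAF chromatin remodelling complex that binds modified histones, received 917 and 786 counts in WT and 3426 and 3568 in KO (log2 fold change 2.30 ± 0.22, adjusted p = 0.046). *Nfkbiz*, an inducible nuclear regulator of NF-κB target genes, received 239 and 213 in WT and 1031 and 1188 in KO (2.54 ± 0.24, adjusted p = 0.046). For both genes the replicates lay close together and the genotypes far apart. *Fam241b* had 466 and 378 against 2170 and 3027 counts, a log2 fold change of 2.85 ± 0.19. The antisense transcript *3110045C21Rik* had 276 and 251 against 1468 and 1674. *Fam177a* was at 0 in both WT libraries with 341 and 431 counts in KO, at least 150.3-fold higher.

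The 8 genes called lower included the target and 7 others. *Akr1b8*, an aldo-keto reductase, received 2851 and 2325 counts in WT and 286 and 415 in KO (log2 fold change −2.66 ± 0.19, adjusted p = 0.027). *Marc2*, a mitochondrial reductase of N-hydroxylated compounds, received 9022 and 6337 in WT and 1268 and 1796 in KO (−2.09 ± 0.18, adjusted p = 0.040). The intergenic noncoding RNA *AC132253.6* fell from 11317 and 9943 to 1002 and 1119 counts (−3.08 ± 0.20, adjusted p = 0.023). It was the most abundant of the 19 genes in WT. *Tfe3*, a transcription factor of lysosomal genes, had 1189 and 961 counts against 87 and 161. *Cdk20*, a kinase related to the cyclin-dependent kinases, had 7135 and 4663 against 126 and 316. It too was at least 4-fold higher in replicate 1 than in replicate 2 of WT at both later stages, although it was low in the KO GV libraries rich in liver RNA. *4930548H24Rik* had 1831 and 1540 against 24 and 48, and the processed transcript *1700001G11Rik* had 1099 and 1256 against 99 and 103.

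**Figure D3:**
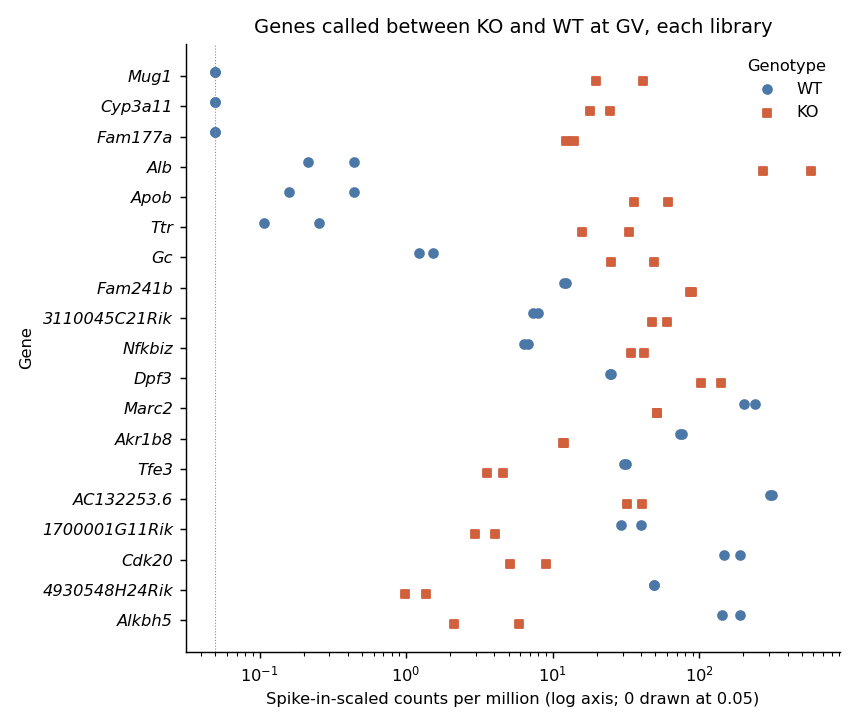
Spike-in-scaled CPM (log axis, 0 drawn at 0.05) of the 19 genes called between KO and WT at GV, with the 2 WT libraries as blue circles and the 2 KO libraries as orange squares. Every gene shows a gap between the genotypes, and 3 genes (*Mug1*, *Cyp3a11* and *Fam177a*) were at 0 in both WT libraries.

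Among abundant genes, the top 4863 of those tested, the largest upward differences that did not overlap again included liver products. *Trf*, which encodes serum transferrin, had 43 and 75 counts in WT and 4095 and 2179 in KO (adjusted p = 0.054). *C3* of the complement system, *Apoe* and *Ahsg* moved in the same way. Besides these and the called genes, *mt-Atp6* of the mitochondrial genome, rested on 1 library, with 1605 and 1866 counts in WT against 14531 and 2713 in KO. On the lower side stood 3 genes that were not called. *Tex15*, needed for meiotic recombination and transposon silencing in the male germline, had 3812 and 3251 counts in WT and 456 and 345 in KO (log2 fold change −2.85 ± 0.33, adjusted p = 0.060). *Dleu2*, a noncoding host transcript of a microRNA cluster, had 1537 and 3036 against 298 and 234 (adjusted p = 0.125). The olfactory receptor gene *Olfr214* had 2789 and 1974 against 499 and 608 (adjusted p = 0.059).

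The transcripts of 42 gene lists were then followed. Apart from the liver list, with 4 called genes, the only list with a called gene was that of peptidases and their inhibitors, through *Mug1*, which is also a liver gene. For 27 of the 42 lists the TMM-scaled library medians overlapped between genotypes, for 11 both KO medians lay above WT and for 4 below. None of the 8 m6A writers, 9 readers and 8 other AlkB and FTO enzymes tested (*Alkbh5* itself was left out of its list) was separated, against 10.7% of all genes. That share comes mostly from genes of low abundance and was not matched to the abundance of these lists. *Ythdf2*, the reader that recruits deadenylases to methylated RNA, had the largest value among 9 readers, with 2190 and 2227 counts in WT and 4399 and 4700 in KO (log2 fold change 1.29 ± 0.22, adjusted p = 0.121). The libraries did not overlap, but under TMM the difference was 0.93, short of 2-fold. Among 8 writers *Rbm15b*, which helps to place the writer complex, was highest, with 121 and 150 against 229 and 281 counts (1.13 ± 0.36, adjusted p = 0.208). The other demethylase, *Fto*, had 115 and 111 counts in WT and 187 and 182 in KO (0.96 ± 0.38, adjusted p = 0.269).

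Cytosolic ribosomal protein genes stood apart on the relative scale. Of 88 tested, only 14 had a log2 fold change above the median of all genes, and their own median was 0.02 by spike-in and −0.33 by TMM, against 0.36 and 0.00 for all genes. Their TMM-scaled library medians, relative to the WT mean, were 0.14 and −0.14 in WT and −0.35 and −0.27 in KO, so the KO libraries lay below both WT libraries. Under TMM 48 of the 88 (54.5%) had both KO libraries below both WT libraries, against 22.5% of all genes, and 6 (6.82%) had both above, against 23.5%. *Rpl35*, the most abundant member, had 87369 and 65361 counts in WT and 57010 and 73213 in KO, a log2 fold change of 0.01 by spike-in and −0.34 by TMM. No member was called or separated 2-fold, and *Rpl41*, the lowest, varied as much within a genotype as between them, at 44563 and 9239 in WT and 9908 and 404 in KO. The list also holds short transcripts: 28 of its 88 genes were in the shortest group by exon length, which itself lay at −0.13, and the part of length was not tested.

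Nuclear genes of oxidative phosphorylation leaned the same way. Of 84 tested, 22 were above the median of all genes, and the TMM median was −0.19. The library medians were 0.10 and −0.10 in WT and −0.30 and −0.09 in KO, so that KO replicate 2 overlapped WT. Of the 84, 2 were separated, both downward, against 3.98% of all genes. They were *Cox7c*, a small subunit of cytochrome c oxidase, with 21585 and 9186 counts in WT and 6049 and 6405 in KO, and *Ndufv3*, an accessory subunit of complex I, with 4799 and 2201 against 1257 and 1541. Neither passed the test (adjusted p = 0.221 and 0.192). In this list 36 of 84 genes were in the shortest group. Mitochondrial ribosomal proteins, at a TMM median of −0.07, overlapped between genotypes.

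Oocyte-specific groups differed by small amounts, in both directions. The subcortical maternal complex and its partners, which hold the egg cytoplasm in order until the embryo cleaves, had 2 of 11 genes above the median of all genes and a TMM median of −0.25, with library medians of 0.08 and −0.08 in WT and −0.38 and −0.13 in KO. *Nlrp4f*, picked after its values were seen, had 50002 and 39463 counts in WT and 21214 and 26350 in KO (log2 fold change −0.67 ± 0.16, adjusted p = 0.160), and was lower again at GVBD, with 44052 and 51699 against 18026 and 24770, and at MII, with 85589 and 80636 against 36714 and 33226. *Khdc3* had 20693 and 4237 against 4551 and 6271, and lay higher in KO by 0.45 once WT replicate 1 was left out. Fertilization and egg calcium genes lay on the other side, with 7 of 8 above the median of all genes and a TMM median of 0.29. Their library medians were 0.04 and −0.04 in WT against 0.32 and 0.25 in KO. *Cd9*, the egg tetraspanin needed for sperm fusion, had 11594 and 9371 counts against 12474 and 14166 (0.60 ± 0.18, adjusted p = 0.195), and *Trpm7*, a calcium channel, had 1055 and 1174 against 1479 and 1671.

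The machinery of meiotic resumption, the step that follows the GV stage, was close to all genes. Genes of CDK1 activation had a TMM median of −0.02, those of prophase arrest 0.01, those of the spindle checkpoint and the anaphase-promoting complex 0.00, and those of *Mos* and the MII arrest −0.01. *Ccnb1*, the cyclin of CDK1, had 34964 and 27301 counts in WT and 32047 and 35327 in KO. *Cdc25a*, one of the phosphatases that switch CDK1 on, had 326 and 321 against 635 and 499 (log2 fold change 1.09 ± 0.36, adjusted p = 0.210). *Mos*, the kinase of the MII arrest, had 6491 and 4472 against 5863 and 7468 (0.53 ± 0.18, adjusted p = 0.221). Deadenylation and decay factors had a TMM median of −0.01, DNA methylation factors −0.04 and the RNA exosome −0.11, each with overlapping libraries. Maternal RNA storage factors had one of 0.06. In that group *Patl2*, a translational repressor of the oocyte, had 984 and 806 against 1121 and 1606 (0.83 ± 0.19, adjusted p = 0.156).

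Proteasome subunits leaned upward, with 26 of 38 above the median of all genes and a TMM median of 0.14, but the WT medians (0.13 and −0.13) and KO medians (0.06 and 0.22) overlapped. Of 36 histone genes, which as a rule lack poly(A) tails, 1 was separated upward and 3 downward, all at low counts, against 6.76% and 3.98% of all genes. Antioxidant enzymes had 2 separated members of 19, about the share of all genes (10.7%). *Gclm*, which supports glutathione synthesis, had 317 and 232 counts in WT and 700 and 493 in KO. *Cat*, catalase, is abundant in liver and had 28 and 170 against 519 and 561 counts, with the opposite order at GVBD and MII. Of 98 tested peptidase and inhibitor genes, 23 were separated upward and 7 downward, against 6.76% and 3.98% of all genes, and 14 of the 23 met the liver pattern. *Serpinb8*, on the lower side, had 231 and 266 against 69 and 53.

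The *Zscan4* cluster stood on the upper side, though no member passed the test. These genes encode zinc finger proteins best known from the burst of transcription in the 2-cell embryo, and they are near-identical copies on chromosome 7, so that uniquely mapped reads may be split between them. *Zscan4d* had 228 and 243 counts in WT and 1365 and 621 in KO (log2 fold change 2.42 ± 0.55, adjusted p = 0.154). *Zscan4e* had 24 and 49 against 268 and 76, and *Zscan4f* had 30 and 61 against 171 and 100. These were the 3 separated genes of 8 tested in the list, where 6.76% of all genes were separated upward, and none of the 8 was called. The most abundant copy, *Zscan4c*, named after its values were seen, overlapped, with 872 and 986 in WT and 1917 and 948 in KO. The library medians of the list were −0.15 and 0.15 in WT and 0.96 and 0.43 in KO.

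**Figure D4:**
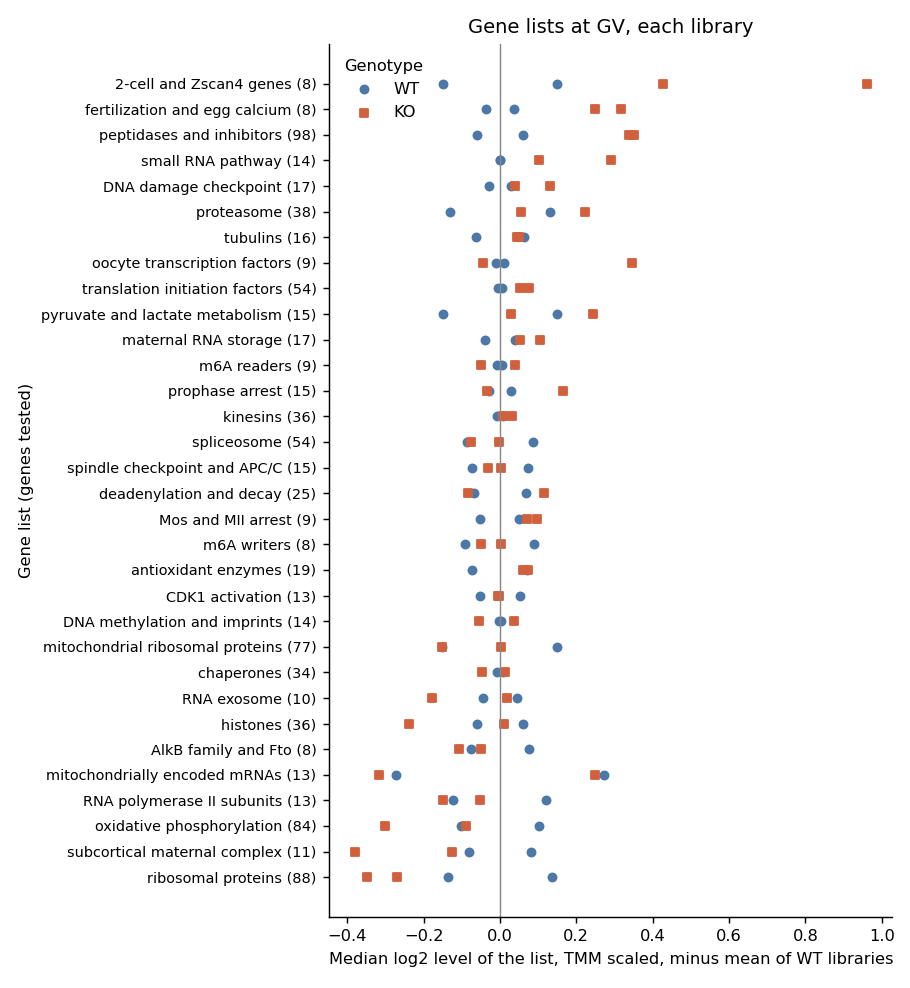
Median TMM-scaled log2 level of each gene list with at least 8 tested genes (lists of other cell types left out), relative to the mean of the WT libraries (x axis), for the 2 WT libraries (blue circles) and the 2 KO libraries (orange squares), ordered by the list's median fold change. Ribosomal proteins lay below both WT libraries in both KO libraries (−0.35 and −0.27), and 2-cell and *Zscan4* genes above (0.96 and 0.43), while most lists overlapped.

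The last question was which GV differences were present in the later libraries, which share no sample with GV. By the study's description samples were taken by time in culture, and whether KO oocytes were chosen by stage was not found in its text, so later KO pools may include arrested oocytes. Of the 1315 genes separated upward at GV, 241 (18.3%) were separated upward at GVBD and 233 (17.7%) at MII, against 7.58% and 9.92% of all genes tested at GV. Of the 775 separated downward, 298 (38.5%) were also lower at GVBD and 203 (26.2%) at MII, against 10.5% and 6.05%. The shares of all genes were not matched for abundance, and genes separated at GV were mostly of low abundance, so the excess is not a measure of persistence alone. Of the upward genes 1130 were tested at GVBD and 922 at MII, and of the downward genes 652 and 545. By edgeR 2.54% of genes were called at GVBD (0.807% higher and 1.73% lower) and 0.803% at MII (0.501% higher and 0.302% lower). The opposite direction was met by 124 and 62 of the 1315 upward genes, where 10.5% and 6.05% of all genes were lower. It was met by 27 and 20 of the 775 downward genes, where 7.58% and 9.92% of all genes were higher. In all, 224 genes held at the 3 stages, 104 higher (7.91% of the upward genes) and 120 lower (15.5% of the downward genes). Since the criterion was stricter for downward genes at GV, the upward and downward shares are not like for like. Among all tested genes with a positive log2 fold change at GV, 2.31% were separated upward at both later stages. For those with a negative one, 5.38% were separated downward at both. The 224 genes were spread over the autosomes and the X chromosome, at 0.61% (chromosome 11) to 1.67% (chromosome 14) of the genes tested on each.

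Of the 19 called genes, 6 held at all stages. *Alkbh5* stayed low, with a log2 fold change of −6.43 ± 0.70 at GVBD and −5.89 ± 0.99 at MII. *Dpf3* was called at every stage, with 969 and 1054 counts in WT against 3430 and 3915 in KO at GVBD (2.16, adjusted p = 0.031) and 839 and 1564 against 6527 and 6717 at MII (2.99, adjusted p = 0.047). *AC132253.6* was also called at every stage, with 11552 and 11206 against 1379 and 1217 at GVBD and 21795 and 40876 against 4120 and 1406 at MII. *Akr1b8* kept its size, at −2.90 (adjusted p = 0.005) at GVBD and −2.82 (adjusted p = 0.206) at MII. *Marc2* had −1.75 and −1.49, and *Nfkbiz* 1.97 and 2.40, none of the 4 past the threshold. None of the 6 liver genes held: at GVBD and MII their libraries overlapped between genotypes.

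Several genes that missed the call at GV were separated at each stage. *Tex15* had 3799 and 3135 counts in WT against 119 and 409 in KO at GVBD (adjusted p = 0.002) and 4028 and 5137 against 659 and 496 at MII (adjusted p = 0.192). *Dleu2* passed the test at both later stages, at −2.74 (adjusted p = 0.010) and −3.54 (adjusted p = 0.014). *Prpf39*, a splicing factor of the U1 particle, had 306 and 389 counts in WT GV and 1778 and 1752 in KO GV, with log2 fold changes of 2.59, 2.65 and 2.62 at GV, GVBD and MII and adjusted p-values of 0.064, 0.012 and 0.158. All 3 *Zscan4* genes above were separated upward at each stage. The following were picked after their values were seen. *Dpys*, an enzyme of pyrimidine breakdown, had 7374 and 5550 counts in WT against 13230 and 18195 in KO at GV. *Ldhc*, the germ cell lactate dehydrogenase, had 575 and 525 against 1776 and 1754. *Hilpda*, a regulator of lipid droplets, had 1337 and 567 against 92 and 120. *Tspan9*, a tetraspanin, had 905 and 614 against 215 and 199.

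**Figure D5:**
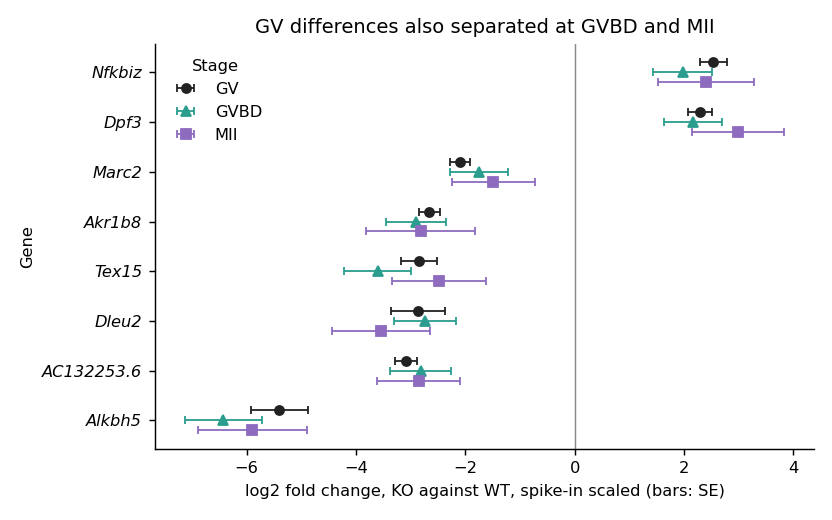
Log2 fold change of KO against WT, spike-in scaled, with its standard error, at GV, GVBD and MII for the 8 genes named by the rule (called, or among the largest of the abundant genes) that were separated in the same direction at all 3 stages. *Dpf3* and *Nfkbiz* were higher at each stage and the other 6 lower, with wider errors at MII.

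Several of the lasting downward genes are known from lymphocytes, a family looked at after values had been seen. Of gene segments of the T cell receptor beta chain 15 were tested, and 7 were separated downward at GV (46.7%, against 3.98% of all genes). At GVBD 14 were (against 10.5% of all genes) and at MII 9 (against 6.05%), and none was separated upward. Of 4 tested genes for CD3 chains of the same receptor complex, *Cd3e* and *Cd3g* were separated downward at each stage, as were 120 of all 19452 tested genes. The 4 together overlapped at GV, at 21.4 and 12.2 CPM in WT and 8.96 and 13.8 in KO. All receptor beta segments in the table summed to 27.3 and 17.7 CPM in WT GV and 11.4 and 10.6 in KO GV, to 86.7 and 51.2 against 8.18 and 17.2 at GVBD, and to 14.2 and 17.4 against 7.19 and 5.71 at MII. *Ptprc*, the pan-leukocyte marker, overlapped between genotypes at GV (log2 fold change 0.11 ± 0.52). The wider blood and immune list went the other way at GV. Of its 13 tested genes, 11 had a log2 fold change above 0 by spike-in and 8 by TMM. Its TMM-scaled library medians were −1.19 and 1.19 in WT and 1.53 and 1.23 in KO. The part of lymphocyte RNA in the other downward genes was not tested.

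Other GV differences were absent at 1 or both later stages. *Fam177a* overlapped at GVBD, with 465 and 70 counts in WT and 540 and 539 in KO, but was called again at MII, with 0 and 78 against 399 and 305 (adjusted p = 0.038 by edgeR). *Fam241b* had 2829 and 2119 counts in WT and 2718 and 2800 in KO at GVBD, with no gap between genotypes. *3110045C21Rik* and *Cdk20* overlapped at both later stages, and *1700001G11Rik* was lower again at GVBD but overlapped at MII. A direct test of whether the genotype difference changed from GV called 2 of 21371 genes at GVBD (0.00936%) and 0 of 20807 at MII, where edgeR gave 1197 genes at an unadjusted p under 0.05 and DESeq2 called 150. Ribosomal proteins, relatively low in KO at GV, had TMM-scaled library medians of −0.01 and 0.01 in WT against 0.11 and 0.25 in KO at GVBD, and −0.04 and 0.04 against 0.69 and 0.07 at MII. Fertilization genes stayed on the upper side, at 0.32 and 0.20 in KO at GVBD and 0.32 and 0.13 at MII, above WT values between −0.05 and 0.05. Such a position was common at GVBD, where 21 of the 42 lists had both KO medians above WT, and was met by 9 lists at MII.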

How the data were processed

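RNA-seq of 12 mouse oocyte libraries was analysed, 2 for each genotype at GV, GVBD and MII. The deposited table gives gene counts, which the authors made by trimming with Cutadapt 1.9, aligning to GRCm38 (mm10) joined to the ERCC sequences with HISAT2 2.0.4, keeping uniquely mapped reads and running StringTie 1.3.4d. The annotation release, strandedness and the last counting step are not given in the sources used here. The study's methods describe full-length cDNA amplified from pooled oocytes with ERCC added before reverse transcription, while the sample descriptions give a bulk preparation, and the number of oocytes per tube is stated in 2 ways. Without molecular identifiers, PCR copies are not independent molecules.

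Counts were fitted with edgeR 4.0.16 in R 4.3.3 (the quasi-likelihood functions glmQLFit and glmQLFTest), with library sizes proportional to summed ERCC counts and genes kept by filterByExpr. A gene was called at a Benjamini-Hochberg adjusted p under 0.05 over all tested genes and an absolute log2 fold change of at least 1, two-sided. GV was fitted on its 4 libraries, and changes between stages as an interaction term over 8. Standard errors come from the F statistic. With 2 libraries per genotype, p-values measure only the spread between those libraries. The fits were tested on simulated counts. Symbols came from a gene name table that matched 52073 of 56691 genes, and positions from GENCODE M21. Library medians of lists are on log2(CPM + 0.02).

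The genes, lists and criteria were chosen with earlier results of these data known. Named genes are *Alkbh5* and *Actb*, every called gene, the 8 highest and 8 lowest genes without overlap among the abundant 4863 (no Gm, Rik or Ensembl names), and the most abundant, highest, lowest and separated members of each list, with exceptions stated. *Actb*, which the study treats as stable, had 2450 and 1683 counts in WT GV and 1291 and 1676 in KO GV (log2 fold change −0.23 ± 0.20, adjusted p = 0.581). Each comparison was repeated with TMM and DESeq2 size factors, with only ERCC sequences of 10 or more counts, with looser and stricter filters, by DESeq2 1.42.0, with a replicate block, with the 12 libraries fitted jointly, without the fold minimum, and leaving out each library. Crossed pairing and setting aside genes of the liver pattern were chosen after seeing the data.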

Additional observations from a re-analysis of the deposited data

Results flagged for a closer look

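The genotype difference of *4930548H24Rik* changed from GV to GVBD by 5.13 ± 0.57 (SE) on the log2 scale (adjusted p = 0.044, edgeR interaction term): it had 1831 and 1540 counts in WT against 24 and 48 in KO at GV, but 2482 and 1840 against 1279 and 1936 at GVBD. At MII its libraries lay in the opposite order to GV, at a log2 fold change of 2.02, with 144 and 108 counts in WT and 561 and 161 in KO (interaction adjusted p = 0.113). *Mir7035*, named because it was the only other gene with such a change, changed by 8.74 ± 0.82 (adjusted p = 0.018), from 519 and 249 in WT against 83 and 129 in KO at GV to 1 and 1 against 96 and 169 at GVBD. *Tfe3* was lower in KO at GV and higher at GVBD, at 2.71, with 51 and 1212 counts in WT and 2621 and 2885 in KO (interaction adjusted p = 0.386). *mt-Atp6* was higher in KO at GV and lower at MII, at −4.17 (interaction adjusted p = 0.408). For *Tfe3* the WT GVBD libraries lay far apart. For *mt-Atp6* libraries of both stages did, with 14531 and 2713 counts in KO GV, and 33208 and 3849 in WT against 603 and 1348 in KO at MII.

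For 4 lists the library medians, TMM scaled, lay apart in opposite directions at GV and later, and these differences were not tested. Of all 42 lists, 21 had both KO medians above WT and 5 below at GVBD, and 9 above and 13 below at MII. Ribosomal proteins were lower in KO at GV and higher at GVBD by 0.18 and at MII by 0.38, where at MII the KO replicates themselves lay at 0.69 and 0.07. Peptidases and inhibitors were higher at GV and lower at GVBD by 0.68 (−0.68). Blood and immune genes were higher at GV and lower at GVBD (−4.62) and at MII (−1.08). Translation initiation factors were higher at GV by 0.07 and lower at MII (−0.07). For peptidases and for blood genes the marker sums of liver and blood varied between libraries as given above, and their part was not tested.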

How the results depend on the processing

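The genes called at GV numbered 19, and 20 to 22 under TMM or median-of-ratios scaling (15 and 16 of the 19 kept), 19 with ERCC sequences of at least 10 counts and 19 with no fold minimum. They became 666 with no filter, 196 with at least 10 counts in every library, 676 by DESeq2, 12 with the 6 higher genes of the liver pattern and *Cdk20*, which shares it, set aside, and 0 with all 12 libraries in one model (932 at an unadjusted p under 0.05). Leaving out 1 library gave 0 to 514: 0 without either KO library (1752 and 3047 at an unadjusted p under 0.05), 346 without WT replicate 1 and 514 without WT replicate 2, with the lone library assumed to vary like the others. No called gene changed direction under these alternatives. Deviations of same-numbered GV libraries correlated at −0.24 over 9726 genes, which gave no sign of pairing. With 2 libraries per genotype, this cannot show whether libraries of the same number were prepared together. A replicate block gave 0 calls at GV (3009 at an unadjusted p under 0.05), 214 at GVBD, 4 at MII, 1 and 0 for the changes from GV. Crossed pairing, added after seeing the data, gave 218 calls at GV, 498 for GVBD and 0 for MII (278 at an unadjusted p under 0.05).

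The 494 genes called at GVBD became 29 under TMM, 37 under median-of-ratios, 953 with no filter, 901 by DESeq2, 12 with all 12 libraries and 5 to 813 with 1 library left out. The 141 at MII became 43, 2, 37 with at least 10 counts, 346 by DESeq2, 219 with all 12 libraries and 11 to 542 with 1 library left out. The 2 genes whose difference changed from GV to GVBD became 635 with no filter, 77 with at least 10 counts, 239 by DESeq2 and 0 to 88 with 1 library left out. The 0 from GV to MII became 71 under TMM, 119 under median-of-ratios, 346 with no filter, 63 with at least 10 counts, 150 by DESeq2 and 0 to 285 with 1 library left out. The ratio of endogenous to ERCC counts stayed within its spread, at 1.09 to 1.28. The median log2 fold change of 0.36 became 0.0031 under TMM, 0.0037 under median-of-ratios and 0.16 to 0.49 with 1 library left out. Among named genes, *Khdc3* (−1.59 to 0.45) and *Ndufa11* (−1.84 to 0.24) turned to higher in KO without WT replicate 1, and *Rpl35*, near 0, was −0.34 under TMM, −0.34 under median-of-ratios and −0.072 to 0.097 with 1 library left out. *Gdf9* turned to −0.059 and −0.056 under these scalings and *Ptprc* to −0.27 and −0.28. With 1 library left out *Ptprc* ranged from −0.49 to 0.72 and *Zscan4c* from −0.0034 to 1.53. Apart from the constructions named, the cause was not tested. Low genes, often at 0 in 1 library only, limit what depth can show.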

Other observations

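Among the GV libraries a few transcripts of the pancreas were found at low counts in WT only, while another was present in both genotypes. *Ins2* (insulin) had 75 and 19 counts in WT and 0 and 0 in KO, *Pnlip* (pancreatic lipase) 48 and 20 against 0 and 0, and *Prss2* (trypsin) 34 and 11 against 0 and 0. *Cpb1* (carboxypeptidase B) was present in both, with 204 and 225 against 212 and 317. These genes were picked after their values were seen, and nothing is concluded from them.

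Zinc finger genes with a numbered Zfp symbol are a family also looked at after values were seen. Among 334 tested, 27 were separated downward at GV (8.08%, against 3.98% of all genes) and 12 upward, where 6.76% of all genes were. These shares were not matched for abundance. Their median log2 fold change was 0.18 by spike-in and −0.16 by TMM. At all 3 stages 10 members were lower, as were 120 of all 19452 tested genes. No member was called at GV.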
